A study of Mus musculus with 11 samples.

Results

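This account covers 44 genes of the extracellular matrix other than collagens, together with the enzymes that crosslink it. They were taken by symbol from a table of 18756 mouse genes: 8 small leucine-rich proteoglycans, 13 proteins of elastic fibres and microfibrils, 5 lysyl oxidases, 13 adhesive and matricellular glycoproteins, 3 genes for large proteoglycans and a hyaluronan synthase, and 2 nidogens of the basement membrane. RNA sequencing was done on 11 end-point skin tumours from a genetically engineered melanoma model in C57BL/6 mice. Of these, 5 were GNA11 Q209L Bap1 KO, 4 were BRAF V600E Bap1 KO and 2 were GNA11 Q209L. GNA11 Q209L is an activating change of the G protein subunit alpha 11 that often drives melanoma of the eye. BRAF V600E is the frequent activating change of cutaneous melanoma, and Bap1 encodes a nuclear deubiquitinase and tumour suppressor. The header of the table marks Bap1 as F/F, floxed, in both genotypes called Bap1 KO and as WT in GNA11 Q209L, and it has a row for CreERT2, a tamoxifen-dependent recombinase, with counts in all 11 libraries. The sources used here do not name the promoter that drives the recombinase, or the age and sex of the mice. The closing lines of the same table give no Bap1 status for BRAF V600E Bap1 KO replicates 2 and 4, so those libraries are also left out below where that matters. Titles of GNA11 Q209L Bap1 KO replicates 1 and 2 share an identifier, and whether both tumours came from 1 mouse is not stated.

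Outside the collagens, a connective tissue is built from a few classes of secreted protein. Small leucine-rich proteoglycans such as decorin sit on collagen fibrils and control their width. Elastic fibres have a core of elastin on a scaffold of fibrillin microfibrils, to which fibulins, microfibril-associated proteins and the latent TGF-beta binding proteins attach. Lysyl oxidases oxidise lysine side chains so that collagen and elastin become crosslinked. Fibronectin, periostin, tenascins, thrombospondins and SPARC link cells to this network or change how they hold it, versican and hyaluronan fill the space between fibres, and nidogens join laminin to type IV collagen in basement membranes. In skin, dermal fibroblasts are the best known source of most of them, and melanoma cells can also make fibronectin, SPARC, tenascin C, versican and lysyl oxidase-like enzymes.

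Library totals ran from 18338082 to 81035135 counts, so that 3 counts equal 0.0370 to 0.164 CPM (counts relative to the library total, scaled by the trimmed mean of M-values). Pigment cell genes were abundant in both GNA11 genotypes and scarce in the BRAF V600E tumours: 10 melanocyte markers summed to 89580 to 118400 CPM in GNA11 Q209L Bap1 KO, to 146 to 361 CPM in BRAF V600E Bap1 KO and to 87450 and 92390 CPM in GNA11 Q209L. Counts of the whole Bap1 gene did not pass the test in GNA11 Q209L Bap1 KO over GNA11 Q209L (adjusted p = 0.92, edgeR) and were lower in the BRAF V600E tumours, with means of 121 ± 29.7 CPM in GNA11 Q209L Bap1 KO (SD, n = 5), 60.9 ± 7.27 CPM in BRAF V600E Bap1 KO (SD, n = 4) and 111 ± 36.8 CPM in GNA11 Q209L (SD, n = 2). All 4 BRAF V600E Bap1 KO libraries were below all 7 others for Bap1, with adjusted p-values of 0.00811 for GNA11 Q209L Bap1 KO over BRAF V600E Bap1 KO and 0.0601 for BRAF V600E Bap1 KO over GNA11 Q209L (edgeR). BRAF V600E Bap1 KO replicate 4 held 174800 CPM of 6 salivary gland markers and 5000 CPM of 8 skeletal muscle markers. Replicates 3 and 4 of that genotype held 13220 and 4069 CPM of 10 keratinocyte markers. In GNA11 Q209L, replicate 1 was the library rich in stroma, with 11940 CPM of 16 fibroblast markers and 6797 CPM of 10 macrophage markers, against 3421 and 830.0 CPM in replicate 2.

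The matrix genes were poorest in GNA11 Q209L Bap1 KO tumours, and the ranges of BRAF V600E Bap1 KO and GNA11 Q209L overlapped above them. In the 5 GNA11 Q209L Bap1 KO libraries the median over members was 4.59, 4.25, 3.82, 2.97 and 2.03 on the log2(CPM + 0.5) scale in replicates 1 to 5. For replicates 1 to 4 of BRAF V600E Bap1 KO it was 6.00, 5.43, 6.83 and 6.52, and 6.13 and 5.06 in GNA11 Q209L replicates 1 and 2. No GNA11 Q209L Bap1 KO library reached the lowest library of either other genotype on this median. The 44 genes together took 0.337% to 0.606% of the CPM in GNA11 Q209L Bap1 KO, 0.6003% to 2.53% in BRAF V600E Bap1 KO, and 0.943% and 0.945% in GNA11 Q209L.

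**Figure D1:**
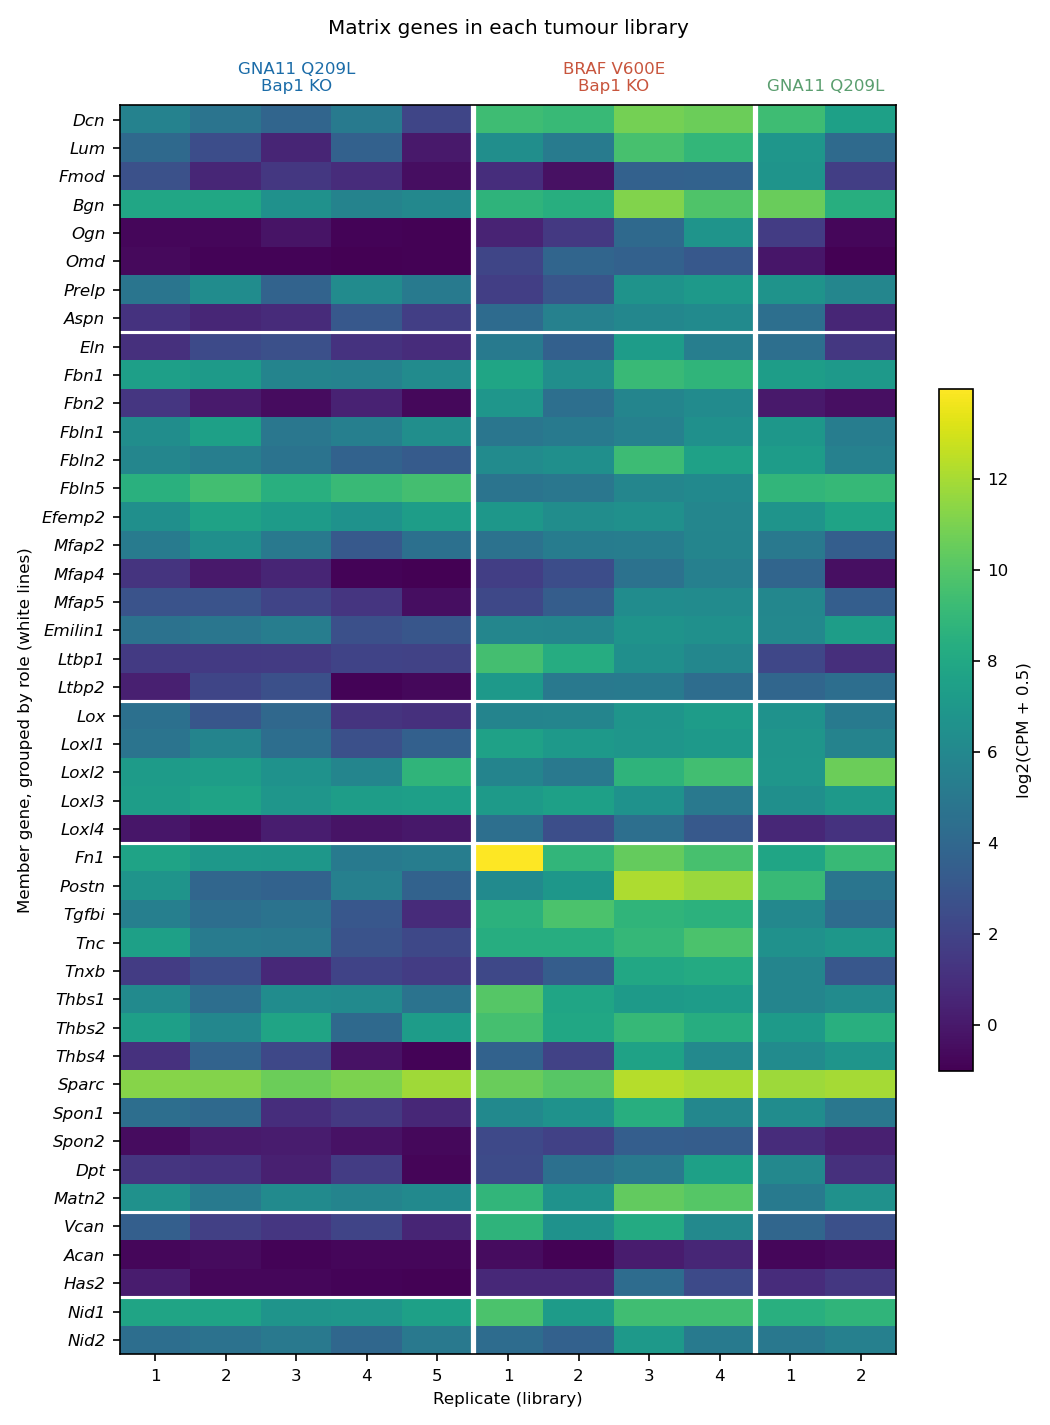
Heat map of the 44 members (rows, grouped by role) in the 11 libraries (columns, by genotype), coloured by log2(CPM + 0.5). Within rows such as Fbn2, Ltbp1, Tgfbi and Vcan, both GNA11 genotypes are darker than BRAF V600E Bap1 KO. Fbln5 shows the opposite, and Sparc is bright throughout.

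What made up this matrix differed as well. Sparc, a collagen-binding glycoprotein that pigment cells and fibroblasts both make, alone supplied 46.5% to 61.1% of the members' CPM in each GNA11 Q209L Bap1 KO library, and Fbln5 came second with 7.18% to 15.5%. In BRAF V600E Bap1 KO, Sparc supplied 6.05% to 22.9%. There Fn1, fibronectin, supplied 63.7% in replicate 1, while Tgfbi came second in replicate 2 and Postn in replicates 3 and 4. In GNA11 Q209L, Sparc supplied 36.8% in replicate 1, followed by Bgn with 15.9%, and 42.7% in replicate 2, followed by Loxl2 with 16.6%. Divided by exon length (GENCODE vM21, not the annotation the counts were made with), Sparc was the most abundant member of its group in every genotype. It stood at 644 CPM per kb in GNA11 Q209L Bap1 KO, 775 CPM per kb in BRAF V600E Bap1 KO and 991 CPM per kb in GNA11 Q209L. Without this division, Fn1 had the higher mean in BRAF V600E Bap1 KO (4686 CPM, against 2937 CPM for Sparc). With the highest library of each gene left out, the means there were 877 CPM for Fn1 and 2257 CPM for Sparc.

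The oncogenes can be set against each other in the tumours labelled Bap1 KO, GNA11 Q209L over BRAF V600E. With edgeR's quasi-likelihood test and Benjamini-Hochberg adjustment over 17350 genes, 33 of 44 members were lower in GNA11 Q209L Bap1 KO and 1, Fbln5, was higher. Of all genes tested, 24.7% were called lower and 16.5% higher, 41.2% in all. The other 10 members, Fmod, Prelp, Fbln1, Efemp2, Mfap2, Loxl2, Loxl3, Sparc, Acan and Nid2, did not pass. In 27 members every GNA11 Q209L Bap1 KO library lay below every BRAF V600E Bap1 KO library, as did 17.2% of all genes, and in Fbln5 the reverse held, as in 14.7%. In 40 members the log2 fold change was below 0, against 57.3% of all genes. The median log2 fold change was -3.48 over the members and -0.26 over all genes.

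Under a shared GNA11 Q209L oncogene, the tumours labelled Bap1 KO can be set against those without the knockout, of which there are 2. No member passed the threshold with edgeR, where 0.0288% of all genes did (5 of 17350). At an unadjusted p under 0.05, 18 members were lower and 0 higher, against 7.52% of all genes lower and 3.84% higher. DESeq2 called 4 members lower, Dcn, Dpt, Emilin1 and Fmod, and 1.36% of all genes lower. Signs leaned 1 way, with 37 of 44 members at a log2 fold change below 0 against 50.2% of all genes, and a median of -1.80 over the members against -0.00 over all genes. The groups did not overlap in 15 members, all lower, where 9.01% of all genes were lower and 7.58% higher in this way. Without GNA11 Q209L replicate 1, the library rich in stroma, the median was -0.72 over the members (0.11 over all genes), and 6 members were lower at an unadjusted p under 0.05 against 2.43% of all genes. Without replicate 2 the median was -1.69, and 18 members were lower at that threshold against 7.85% of all genes.

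**Figure D2:**
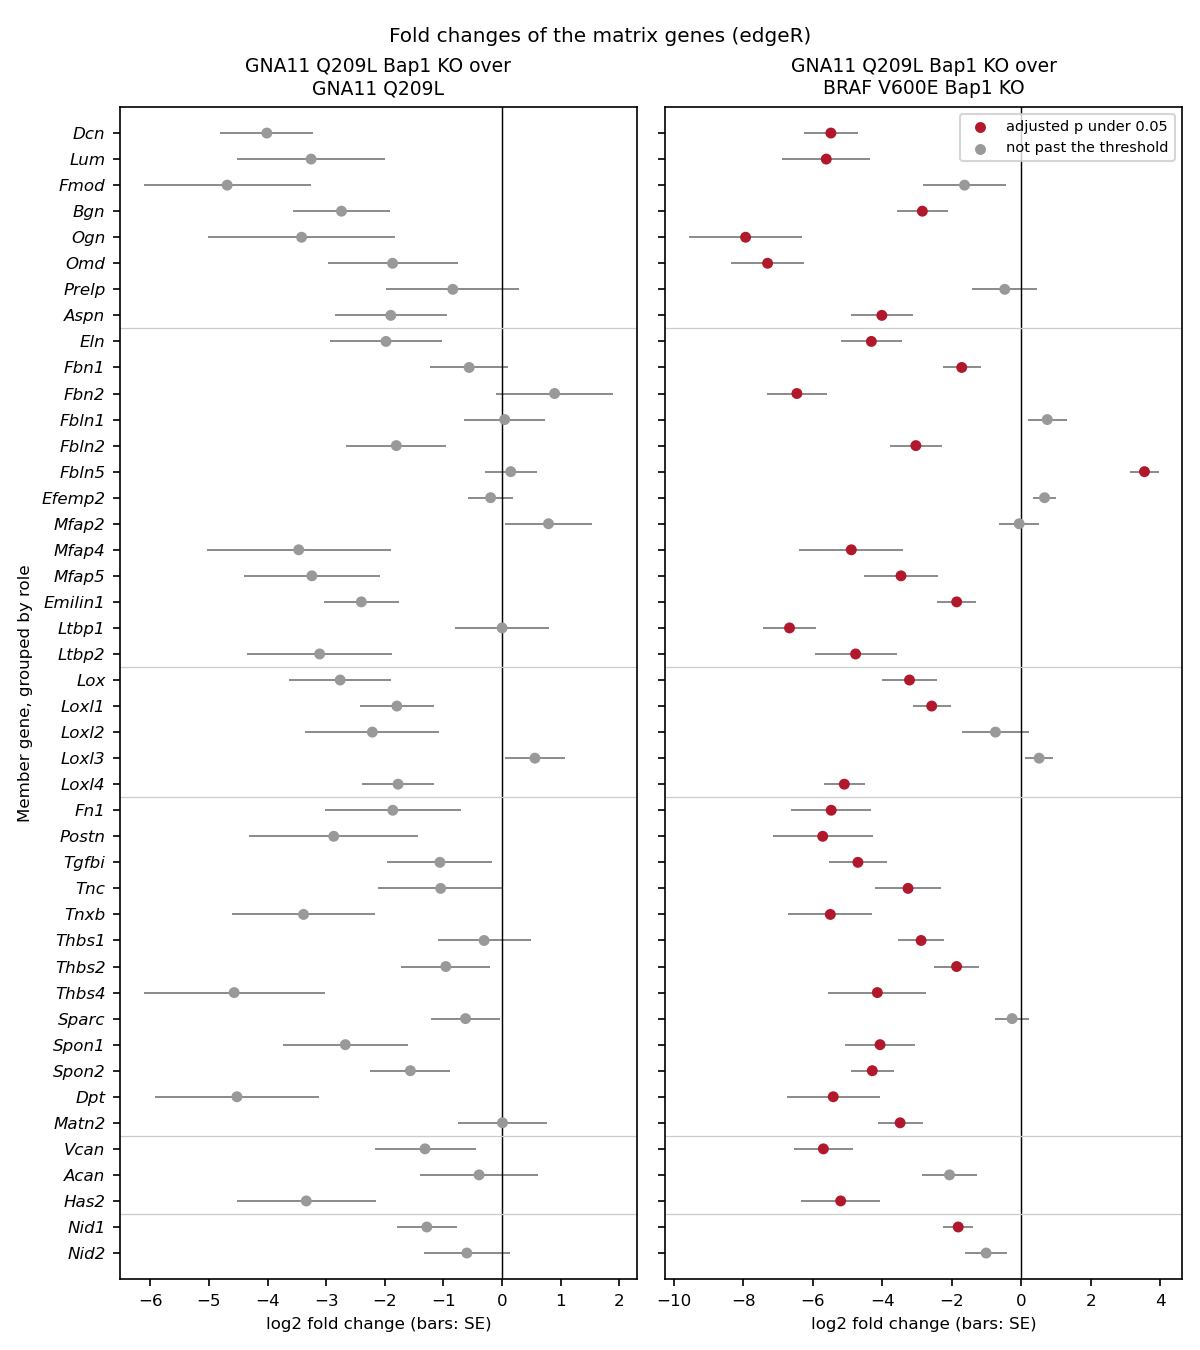
Log2 fold change of each member with its SE (edgeR), GNA11 Q209L Bap1 KO over GNA11 Q209L on the left and over BRAF V600E Bap1 KO on the right; red points have an adjusted p under 0.05. On the left 37 of 44 points lie below 0 and none is red, and on the right 33 red points lie below 0 and Fbln5 alone above it.

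Fibroblast markers moved with the members. The list of 16, which shares no gene with the 44, summed to 2623, 2133, 1330, 789 and 596 CPM in GNA11 Q209L Bap1 KO replicates 1 to 5. The members' medians rank these 5 libraries alike. In BRAF V600E Bap1 KO replicates 1 to 4 the sum was 7076, 5499, 18780 and 12000 CPM, and in GNA11 Q209L replicates 1 and 2 it was 11940 and 3421 CPM. All 16 were lower in GNA11 Q209L Bap1 KO than in BRAF V600E Bap1 KO (edgeR, median log2 fold change -3.84). The share of all genes called lower there was 24.7%. Against GNA11 Q209L none of the 16 passed, and their median was -2.48. At an unadjusted p under 0.05, 12 of them were lower there, against 7.52% of all genes. The defining fibroblast collagen Col1a1 was at 64.2 to 715 CPM in GNA11 Q209L Bap1 KO, 264 to 3569 CPM in BRAF V600E Bap1 KO, and 646 and 2803 CPM in GNA11 Q209L. No fibroblast marker was at 0 except Dpp4 in GNA11 Q209L replicate 2. In a bulk tumour, fewer cells of a type and less RNA per cell cannot be told apart, and the part of fibroblast content in the members' differences was not tested.

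**Figure D3:**
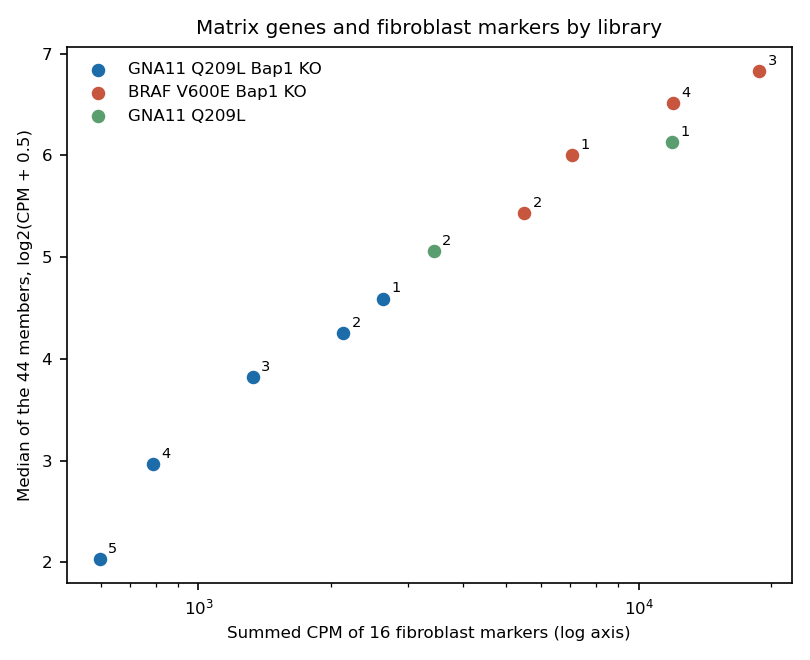
Each point is a library, numbered by replicate: the x axis (log scale) gives the summed CPM of 16 fibroblast markers and the y axis the median of the 44 members as log2(CPM + 0.5). The 5 GNA11 Q209L Bap1 KO libraries occupy the lower left, from 596 to 2623 CPM of markers and medians of 2.03 to 4.59, with the other 6 libraries above them on both axes.

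Among the small leucine-rich proteoglycans, 6 of 8 were lower in GNA11 Q209L Bap1 KO than in BRAF V600E Bap1 KO (median log2 fold change -4.75). Of all genes tested, 24.7% were called lower there. Dcn encodes decorin, which binds collagen fibrils and TGF-beta. It stood at 50.2, 26.4, 14.2, 33.7 and 3.86 CPM in GNA11 Q209L Bap1 KO, at 643, 540.5, 1849 and 1560 CPM in BRAF V600E Bap1 KO, and at 645 and 182 CPM in GNA11 Q209L. Each GNA11 Q209L Bap1 KO library was thus below each library of both other genotypes. The log2 fold change was -5.48 ± 0.78 (SE) over BRAF V600E Bap1 KO, with an adjusted p of 0.000968 (edgeR). Over GNA11 Q209L it was -4.01 ± 0.80, with an unadjusted p of 0.000399, the smallest of the members there, and adjusted p-values of 0.131 with edgeR and 0.000484 with DESeq2. Without GNA11 Q209L replicate 1 that value was -2.83, and without replicate 2 it was -4.60 (edgeR).

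Bgn, biglycan, the close relative of decorin, had the highest mean CPM of the group over all 11 libraries, though in BRAF V600E Bap1 KO Dcn was higher (means of 1148 CPM for Dcn and 990.3 CPM for Bgn, or 196.7 and 162.4 CPM per kb of exon). It stood at 232, 244, 95.9, 51.5 and 63.1 CPM in GNA11 Q209L Bap1 KO, at 422, 334, 2287 and 918 CPM in BRAF V600E Bap1 KO, and at 1499 and 334 CPM in GNA11 Q209L. The groups were again apart. Bgn fell by 2.85 ± 0.74 on the log2 scale against BRAF V600E Bap1 KO (adjusted p = 0.0128, edgeR), and the value was -2.03 without replicate 3 of that genotype. Over GNA11 Q209L its log2 fold change was -2.74 ± 0.83 (adjusted p = 0.272, edgeR), -1.28 without GNA11 Q209L replicate 1 and -3.37 without replicate 2. Lum, lumican, which spaces collagen fibrils, had 16.7, 5.25, 0.974, 11.9 and 0.519 CPM in GNA11 Q209L Bap1 KO, against 84.2, 37.6, 779 and 479.6 CPM in BRAF V600E Bap1 KO, and 117 and 17.8 CPM in GNA11 Q209L. Its log2 fold change over BRAF V600E Bap1 KO was -5.62 ± 1.26 (adjusted p = 0.00705, edgeR), -4.85 without BRAF V600E Bap1 KO replicate 3 and -6.22 without GNA11 Q209L Bap1 KO replicate 1.

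Ogn and Omd, osteoglycin and osteomodulin, were low in the GNA11 tumours. Ogn had 0.109, 0.111, 0.379, 0.0476 and 0.0346 CPM in GNA11 Q209L Bap1 KO, against 0.922, 2.35, 16.6 and 107.6 CPM in BRAF V600E Bap1 KO, and 2.64 and 0.0892 CPM in GNA11 Q209L. Omd had 0.163, 0.0553, 0.0541, 0 and 0.0346 CPM in GNA11 Q209L Bap1 KO, against 3.89, 14.5, 12.1 and 8.26 CPM in BRAF V600E Bap1 KO, and 0.419 and 0 CPM in GNA11 Q209L. No GNA11 Q209L Bap1 KO library had more than 3 counts of Omd or 7 counts of Ogn. Ogn fell by 7.94 ± 1.64 on the log2 scale against BRAF V600E Bap1 KO (adjusted p = 0.00494, edgeR). Its value was -5.66 without BRAF V600E Bap1 KO replicate 4, -8.69 without GNA11 Q209L Bap1 KO replicate 3, and -6.04 without the 2 BRAF V600E Bap1 KO libraries that lack a Bap1 entry. Omd fell by 7.30 ± 1.05 (adjusted p = 0.00102, edgeR), with -7.97 without GNA11 Q209L Bap1 KO replicate 1. With counts this low the size of these folds depends on the prior count of the fit. Aspn, asporin, was at 1.05 to 8.28 CPM in GNA11 Q209L Bap1 KO, against 17.98 to 72.2 CPM in BRAF V600E Bap1 KO, and was also lower (log2 fold change -4.02, adjusted p = 0.00659, edgeR; -4.72 without GNA11 Q209L Bap1 KO replicate 4).

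The remaining pair of the group, Fmod and Prelp, did not pass the test between the Bap1 KO genotypes. Fmod, fibromodulin, which guides collagen fibril assembly, stood at 6.03, 0.995, 2.16, 1.33 and 0.242 CPM in GNA11 Q209L Bap1 KO, at 1.48, 0.307, 12.3 and 12.6 CPM in BRAF V600E Bap1 KO, and at 107 and 2.90 CPM in GNA11 Q209L. GNA11 Q209L replicate 1 stood far above the other 10 libraries, and replicate 2 lay within the range of GNA11 Q209L Bap1 KO. Its log2 fold change was -4.69 ± 1.42 over GNA11 Q209L (adjusted p = 0.274 with edgeR and 0.031 with DESeq2) and -1.64 ± 1.20 over BRAF V600E Bap1 KO (adjusted p = 0.288, edgeR). The Fmod value over GNA11 Q209L was -0.44 without replicate 1 of that genotype and -5.59 without replicate 2 (edgeR). Prelp, which anchors basement membrane to connective tissue, was at 13.0 to 77.5 CPM in GNA11 Q209L Bap1 KO, 2.89 to 139 CPM in BRAF V600E Bap1 KO, and 58.0 and 104.5 CPM in GNA11 Q209L. In the RefSeq gene order (GRCm38.p6) Aspn, Omd and Ogn follow each other on chromosome 13, Dcn and Lum on chromosome 10, and Prelp and Fmod on chromosome 1, with no protein-coding gene between. The first 5 of these genes were all lower in GNA11 Q209L Bap1 KO than in BRAF V600E Bap1 KO, and neither gene of the chromosome 1 pair was called. In that comparison 33 of all 44 members and 24.7% of all genes were called lower. A part of gene order in these calls was not tested.

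Elastic fibre and microfibril genes held both the only member that was higher and some of the largest differences the other way. Of 13, 9 were lower in GNA11 Q209L Bap1 KO than in BRAF V600E Bap1 KO and 1 was higher. Of all genes tested, 24.7% were called lower there and 16.5% higher. Fbln5, fibulin 5, tethers elastin to cells and is needed for elastic fibre assembly. It stood at 370, 694, 348, 561 and 727 CPM in GNA11 Q209L Bap1 KO, at 26.8, 30.4, 59.1 and 69.2 CPM in BRAF V600E Bap1 KO, and at 458 and 515 CPM in GNA11 Q209L. Every library with GNA11 Q209L was above every library with BRAF V600E. Fbln5 rose by 3.54 ± 0.40 on the log2 scale against BRAF V600E Bap1 KO (adjusted p = 0.000356, edgeR), and by 3.35 to 3.79 with any 1 library left out. Over GNA11 Q209L its log2 fold change was 0.15 ± 0.44 (adjusted p = 0.945, edgeR). No other fibulin gene of the list was called higher: Fbln1 was at 30.4 to 181 CPM in GNA11 Q209L Bap1 KO, against 28.6 to 89.7 CPM in BRAF V600E Bap1 KO, Efemp2 (fibulin 4) at 88.9 to 194 and 57.2 to 120 CPM, and neither passed. Fbln2 was lower, at 9.49 to 57.7 CPM in GNA11 Q209L Bap1 KO, against 75.3 to 609.7 CPM in BRAF V600E Bap1 KO (log2 fold change -3.04, adjusted p = 0.0112, edgeR; -2.02 without BRAF V600E Bap1 KO replicate 3).

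Ltbp1, which holds latent TGF-beta in the matrix, had the same adjusted p in the other direction. It had 2.44, 2.43, 2.54, 3.48 and 3.35 CPM in GNA11 Q209L Bap1 KO, against 712, 308, 87.0 and 60.5 CPM in BRAF V600E Bap1 KO, and 4.11 and 1.56 CPM in GNA11 Q209L. All 7 libraries with GNA11 Q209L lay under 5 CPM and all 4 with BRAF V600E above 60 CPM. Ltbp1 fell by 6.67 ± 0.76 on the log2 scale against BRAF V600E Bap1 KO (adjusted p = 0.000356, edgeR), with -5.74 without BRAF V600E Bap1 KO replicate 1. Over GNA11 Q209L its log2 fold change was 0.00 ± 0.80. Fbn2, a fibrillin of developing microfibrils, had 2.12, 0.553, 0.216, 0.857 and 0.121 CPM in GNA11 Q209L Bap1 KO, against 115, 21.8, 54.9 and 75.5 CPM in BRAF V600E Bap1 KO, and 0.523 and 0.268 CPM in GNA11 Q209L. Against BRAF V600E Bap1 KO the log2 fold change was -6.46 ± 0.86 (adjusted p = 0.00076, edgeR), and -7.29 without GNA11 Q209L Bap1 KO replicate 1. Fbn1, the main fibrillin of adult tissue, was far less unequal, at 49.4 to 177 CPM in GNA11 Q209L Bap1 KO, against 85.0 to 557 CPM in BRAF V600E Bap1 KO. Its call (log2 fold change -1.72 ± 0.55, adjusted p = 0.0289, edgeR) was lost without GNA11 Q209L Bap1 KO replicate 3, 4 or 5 or BRAF V600E Bap1 KO replicate 3 or 4, with adjusted p-values up to 0.0819.

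Emilin1, an elastic fibre glycoprotein that restrains TGF-beta processing, was among the members with the smallest p against GNA11 Q209L. It stood at 24.5, 28.9, 40.3, 5.86 and 7.66 CPM in GNA11 Q209L Bap1 KO, at 58.4, 56.0, 105 and 92.3 CPM in BRAF V600E Bap1 KO, and at 62.1 and 164 CPM in GNA11 Q209L, the last above all other libraries. No GNA11 Q209L Bap1 KO library reached any library of the other 2 genotypes. Its log2 fold change was -2.40 ± 0.64 over GNA11 Q209L (adjusted p = 0.235 with edgeR and 0.0415 with DESeq2) and -1.86 ± 0.56 over BRAF V600E Bap1 KO (adjusted p = 0.0222, edgeR). Over GNA11 Q209L the Emilin1 value was -1.46 without replicate 2 of that genotype (edgeR). The call over BRAF V600E Bap1 KO was lost without replicate 5 of GNA11 Q209L Bap1 KO (adjusted p = 0.0559) and without the 2 BRAF V600E Bap1 KO libraries that lack a Bap1 entry (adjusted p = 0.072). Elastin itself, Eln, was at 1.35 to 5.73 CPM in GNA11 Q209L Bap1 KO, 11.7 to 153 CPM in BRAF V600E Bap1 KO, and 2.19 and 21.5 CPM in GNA11 Q209L, and was lower against BRAF V600E Bap1 KO (log2 fold change -4.32 ± 0.89, adjusted p = 0.00489, edgeR). Without BRAF V600E Bap1 KO replicate 3 the value was -3.29, and without the 2 libraries that lack a Bap1 entry it was -4.94. The microfibril genes Mfap4 and Mfap5 and the latent TGF-beta binding protein gene Ltbp2 were lower too (log2 fold changes -4.90, -3.47 and -4.77), with adjusted p-values of 0.0249, 0.0242 and 0.0107 (edgeR). Without the 2 libraries that lack a Bap1 entry, Mfap4 and Mfap5 lost the call (adjusted p = 0.0798 and 0.0627) and Ltbp2 was at -5.42. Mfap4 also lost it without GNA11 Q209L Bap1 KO replicate 2 or BRAF V600E Bap1 KO replicate 4 (-4.74 and -4.08), and was at -5.75 without GNA11 Q209L Bap1 KO replicate 1. Mfap5 lost it in 4 of the 9 fits without 1 library, those without GNA11 Q209L Bap1 KO replicate 3 or 4 or BRAF V600E Bap1 KO replicate 3 or 4, with adjusted p-values up to 0.0547. Ltbp2 was at -3.84 without BRAF V600E Bap1 KO replicate 1 and -5.49 without GNA11 Q209L Bap1 KO replicate 3. Mfap2 did not pass, at 8.47 to 87.7 CPM in GNA11 Q209L Bap1 KO, against 24.3 to 56.1 CPM in BRAF V600E Bap1 KO.

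**Figure D4:**
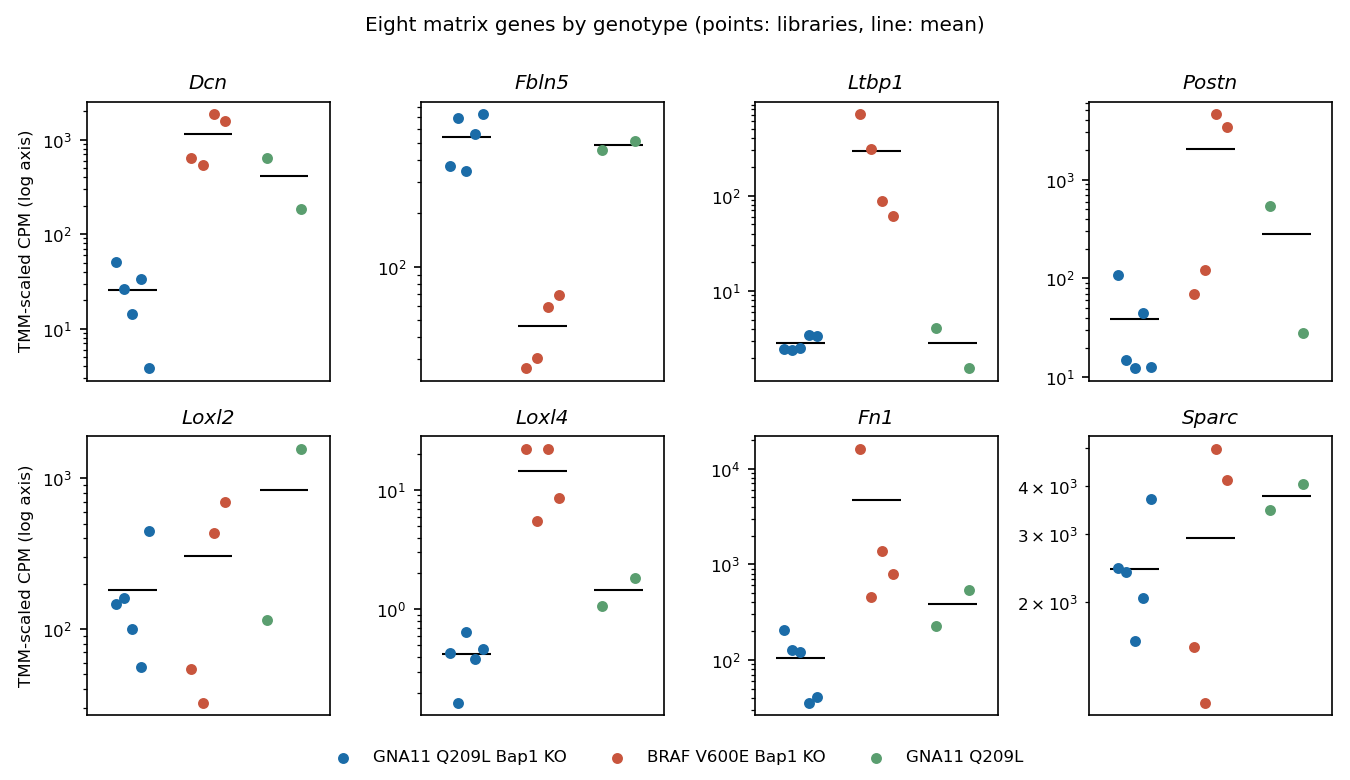
CPM of 8 members on log axes by genotype; each point is a library and each line the mean of its genotype. Fbln5 is high in both GNA11 genotypes, Ltbp1 and Loxl4 are high in BRAF V600E Bap1 KO, Dcn is lowest in GNA11 Q209L Bap1 KO, and Fn1 and Postn vary widely within BRAF V600E Bap1 KO.

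The lysyl oxidases did not move as a block: Lox, Loxl1 and Loxl4 were lower in GNA11 Q209L Bap1 KO than in BRAF V600E Bap1 KO, and Loxl2 and Loxl3 were not called. Lox, the founding crosslinking enzyme, had 22.9, 7.69, 16.1, 1.86 and 1.57 CPM in GNA11 Q209L Bap1 KO, against 54.2, 55.0, 110 and 153 CPM in BRAF V600E Bap1 KO, and 99.4 and 35.9 CPM in GNA11 Q209L. The GNA11 Q209L Bap1 KO values lay below all others. The change on the log2 scale was -3.22 ± 0.79 over BRAF V600E Bap1 KO (adjusted p = 0.0102, edgeR) and -2.76 ± 0.87 over GNA11 Q209L (adjusted p = 0.293, edgeR), the second being -1.85 without GNA11 Q209L replicate 1. Loxl4 had 0.434, 0.166, 0.649, 0.381 and 0.467 CPM in GNA11 Q209L Bap1 KO, against 22.0, 5.45, 22.1 and 8.53 CPM in BRAF V600E Bap1 KO, and 1.07 and 1.83 CPM in GNA11 Q209L. Its 3 genotypes did not overlap, in that order of low, high and intermediate. Loxl4 fell by 5.10 ± 0.58 on the log2 scale against BRAF V600E Bap1 KO (adjusted p = 0.000356, edgeR), and by 5.71 without the 2 libraries that lack a Bap1 entry. Over GNA11 Q209L the change was -1.77 ± 0.61 (adjusted p = 0.34, edgeR).

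Loxl2, the most abundant lysyl oxidase by mean CPM, varied widely within each genotype. It stood at 147, 160, 99.7, 55.7 and 447 CPM in GNA11 Q209L Bap1 KO, at 54.0, 32.6, 433 and 700.4 CPM in BRAF V600E Bap1 KO, and at 115 and 1569 CPM in GNA11 Q209L. GNA11 Q209L replicate 2 was the highest of the 11 libraries, replicate 1 lay within both other genotypes, and the 3 genotypes overlapped. On the log2 scale it differed by -0.75 ± 0.98 over BRAF V600E Bap1 KO (adjusted p = 0.555, edgeR), and -2.21 ± 1.14 over GNA11 Q209L (adjusted p = 0.51, edgeR), which was 0.74 without GNA11 Q209L replicate 2. Loxl3 did not pass in any comparison, at 115 to 202 CPM in GNA11 Q209L Bap1 KO, 33.1 to 182 CPM in BRAF V600E Bap1 KO, and 88.2 and 131 CPM in GNA11 Q209L. Per kb of exon, Loxl3 and Loxl2 led the family in GNA11 Q209L Bap1 KO, at 35.2 and 33.6 CPM per kb, while Loxl2 and Loxl1 led it in BRAF V600E Bap1 KO, at 56.4 and 43.0 CPM per kb. Loxl1, which acts on elastin, was at 5.76 to 53.7 CPM in GNA11 Q209L Bap1 KO, against 116 to 187 CPM in BRAF V600E Bap1 KO (adjusted p = 0.00572, edgeR).

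The promoters of Fbln5, Ltbp1 and Loxl4, the members with the smallest p between the Bap1 KO genotypes, are shown because 1 of them was higher and the others were lower in GNA11 Q209L Bap1 KO. Each is the 250 bases before a RefSeq transcript start (GRCm38.p6, a later build than that of the counts), written 5′ to 3′ on the gene's strand, and capitals mark matches to the motifs named after them.
Fbln5 promoter, chr12:101819120-101819369 (minus strand): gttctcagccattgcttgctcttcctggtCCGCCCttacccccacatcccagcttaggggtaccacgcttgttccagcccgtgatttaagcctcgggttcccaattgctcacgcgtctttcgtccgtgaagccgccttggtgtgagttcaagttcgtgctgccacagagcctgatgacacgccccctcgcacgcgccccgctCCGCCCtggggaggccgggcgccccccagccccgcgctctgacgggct
Ltbp1 promoter, chr17:75005279-75005528 (plus strand): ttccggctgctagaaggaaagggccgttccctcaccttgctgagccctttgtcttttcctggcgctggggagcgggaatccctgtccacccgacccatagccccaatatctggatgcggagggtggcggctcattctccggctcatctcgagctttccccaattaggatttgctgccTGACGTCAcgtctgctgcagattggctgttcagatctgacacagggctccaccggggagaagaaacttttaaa
Loxl4 promoter, chr19:42612807-42613056 (minus strand): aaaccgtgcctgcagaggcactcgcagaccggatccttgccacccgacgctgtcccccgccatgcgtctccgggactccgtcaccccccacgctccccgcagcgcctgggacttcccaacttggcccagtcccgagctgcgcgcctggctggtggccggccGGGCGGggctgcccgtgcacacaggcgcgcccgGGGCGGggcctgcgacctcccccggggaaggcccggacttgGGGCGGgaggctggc
Both strands were searched for an AP-1 motif (TGANTCA), a TEAD motif (GGAATG), an E-box (CACATG), a cAMP response element (TGACGTCA) and a GC box (GGGCGG), and none of these strings contains another. The Fbln5 window had 2 GC boxes, that of Loxl4 had 3 GC boxes, and that of Ltbp1 had 1 cAMP response element. Fbln5 and Ltbp1 each have a second window in the table, at another transcript start, with 0 matches to any of these motifs. None of the windows had an AP-1, TEAD or E-box match in these letters. The table held 35 windows for 27 members. A GC box occurred in 18 of the 35 (51.4%), against 32.7% of all 32851 promoters. The TEAD motif occurred in 5 (14.3%, against 12.6%), the E-box in 3 (8.57%, against 12.3%), the AP-1 motif in 1 (2.86%, against 6.75%) and the cAMP response element in 1 (2.86%, against 1.55%). A match describes the letters and not a binding site.

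Adhesive and matricellular glycoproteins were lower in GNA11 Q209L Bap1 KO than in BRAF V600E Bap1 KO for 12 of 13 members, all but Sparc (median log2 fold change -4.15). Of all genes tested, 24.7% were called lower there. Sparc had 2452, 2392, 1590, 2054 and 3706 CPM in GNA11 Q209L Bap1 KO, against 1530, 1102, 4979 and 4137 CPM in BRAF V600E Bap1 KO, and 3468 and 4039 CPM in GNA11 Q209L. The ranges of the Bap1 KO genotypes overlapped, and the log2 fold change was -0.27 ± 0.48 between them and -0.62 ± 0.59 over GNA11 Q209L (adjusted p = 0.672 and 0.755, edgeR). Fn1 had 204, 126, 120.4, 35.8 and 40.5 CPM in GNA11 Q209L Bap1 KO, against 16110, 454, 1391 and 787 CPM in BRAF V600E Bap1 KO, and 226 and 541 CPM in GNA11 Q209L. All GNA11 Q209L Bap1 KO libraries were below all others, and BRAF V600E Bap1 KO replicate 1 stood far above the next library. Against BRAF V600E Bap1 KO the log2 fold change was -5.48 ± 1.15 (adjusted p = 0.00532, edgeR), -3.06 without that library and -6.41 without the 2 libraries that lack a Bap1 entry. Fn1 was chosen for its values in every library after they were seen.

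Postn, periostin, a matrix protein of wound and tumour stroma, had 108, 15.1, 12.4, 45.1 and 12.6 CPM in GNA11 Q209L Bap1 KO, against 70.0, 121, 4576 and 3372 CPM in BRAF V600E Bap1 KO, and 537 and 27.9 CPM in GNA11 Q209L. BRAF V600E Bap1 KO replicates 1 and 2 were close to the highest GNA11 Q209L Bap1 KO library, and replicates 3 and 4 were far above it, so the groups overlapped. The change over BRAF V600E Bap1 KO was -5.72 ± 1.44 (adjusted p = 0.0117, edgeR), -4.96 without BRAF V600E Bap1 KO replicate 3 and -6.58 without GNA11 Q209L Bap1 KO replicate 1. Tnxb, tenascin X, which stabilises dermal collagen, had 2.72, 5.198, 1.14, 3.48 and 2.65 CPM in GNA11 Q209L Bap1 KO, against 4.26, 9.99, 252 and 283 CPM in BRAF V600E Bap1 KO, and 55.4 and 8.03 CPM in GNA11 Q209L. The split between replicates 1 and 2 and replicates 3 and 4 was the same, and the groups overlapped at Tnxb too. Tnxb fell by 5.50 ± 1.21 on the log2 scale against BRAF V600E Bap1 KO (adjusted p = 0.00643, edgeR), with -4.88 without BRAF V600E Bap1 KO replicate 4. Over all 44 members, BRAF V600E Bap1 KO replicates 1 and 2 were both below replicates 3 and 4 in 29 and both above them in 3. This split was not counted over all genes, so whether it is particular to the members is not known.

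Dpt, dermatopontin, a small dermal protein that binds decorin, had 1.96, 1.83, 0.757, 2.62 and 0.0691 CPM in GNA11 Q209L Bap1 KO, against 4.75, 22.9, 33.3 and 183 CPM in BRAF V600E Bap1 KO, and 63.9 and 1.65 CPM in GNA11 Q209L. GNA11 Q209L replicate 2 lay within the GNA11 Q209L Bap1 KO range and replicate 1 far above it. The log2 fold change was -4.52 ± 1.40 over GNA11 Q209L (adjusted p = 0.284 with edgeR and 0.0397 with DESeq2) and -5.42 ± 1.34 over BRAF V600E Bap1 KO (adjusted p = 0.011, edgeR), which was -3.84 without BRAF V600E Bap1 KO replicate 4. The Dpt value over GNA11 Q209L was -0.21 without replicate 1 of that genotype and -5.44 without replicate 2 (edgeR). The call over BRAF V600E Bap1 KO was lost without the 2 libraries that lack a Bap1 entry (-3.70, adjusted p = 0.0642). Thbs4, a thrombospondin of tendon and muscle matrix, had 1.68, 13.4, 4.33, 0.333 and 0.0519 CPM in GNA11 Q209L Bap1 KO, against 12.4, 3.37, 197 and 65.5 CPM in BRAF V600E Bap1 KO, and 75.5 and 111 CPM in GNA11 Q209L. Both GNA11 Q209L libraries were above all 5 GNA11 Q209L Bap1 KO libraries. The log2 fold change was -4.57 ± 1.55 over GNA11 Q209L (adjusted p = 0.327, edgeR) and -4.15 ± 1.41 over BRAF V600E Bap1 KO (adjusted p = 0.0373, edgeR). Those groups overlapped. That call was lost without GNA11 Q209L Bap1 KO replicate 1, 3, 4 or 5 or BRAF V600E Bap1 KO replicate 3 or 4, and the value ran from -5.42 without GNA11 Q209L Bap1 KO replicate 2 to -2.80 without BRAF V600E Bap1 KO replicate 3 (adjusted p = 0.121). It was also lost when the 2 libraries of 1 identifier were summed (adjusted p = 0.0509).

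The other members of this group were all lower than in BRAF V600E Bap1 KO, and none was called against GNA11 Q209L. Tgfbi, a TGF-beta-induced adhesion protein, was at 1.30 to 43.98 CPM in GNA11 Q209L Bap1 KO, 386 to 844 CPM in BRAF V600E Bap1 KO, and 19.1 and 63.5 CPM in GNA11 Q209L (log2 fold change -4.71 ± 0.84 over BRAF V600E Bap1 KO, adjusted p = 0.0027, edgeR). Matn2, matrilin 2, an adaptor between matrix filaments, was at 34.2 to 96.2 CPM in GNA11 Q209L Bap1 KO, 99.2 to 1304 CPM in BRAF V600E Bap1 KO, and 35.9 and 93.1 CPM in GNA11 Q209L. The 5 GNA11 Q209L Bap1 KO libraries held the 2 GNA11 Q209L libraries within their range for Matn2, and its log2 fold change there was 0.01 ± 0.76. Tnc, tenascin C, was at 4.17 to 181 CPM in GNA11 Q209L Bap1 KO, 319 to 846 CPM in BRAF V600E Bap1 KO, and 95.4 and 119.6 CPM in GNA11 Q209L. The Tnc call (log2 fold change -3.26, adjusted p = 0.0199, edgeR) was lost without replicate 2 of GNA11 Q209L Bap1 KO (adjusted p = 0.0533) and without the 2 libraries that lack a Bap1 entry (adjusted p = 0.079), and the value was -4.65 without GNA11 Q209L Bap1 KO replicate 1. Thbs1, an activator of latent TGF-beta, was at 20.7 to 78.7 CPM in GNA11 Q209L Bap1 KO, 144 to 1061 CPM in BRAF V600E Bap1 KO, and 56.8 and 75.5 CPM in GNA11 Q209L. Its log2 fold change against BRAF V600E Bap1 KO was -2.89 (adjusted p = 0.00822, edgeR), -1.71 without replicate 1 of that genotype and -3.53 without the 2 libraries that lack a Bap1 entry. Thbs2 was nearer to even, at 17.1 to 216 CPM in GNA11 Q209L Bap1 KO, against 245 to 740 CPM in BRAF V600E Bap1 KO, and lost its call (log2 fold change -1.87, adjusted p = 0.0378, edgeR) without GNA11 Q209L Bap1 KO replicate 1, 2 or 5 or BRAF V600E Bap1 KO replicate 1 or 3 (adjusted p up to 0.0969) and when the 2 libraries of 1 identifier were summed (adjusted p = 0.0721). The spondins Spon1 and Spon2 were lower, with log2 fold changes of -4.07 and -4.29 and adjusted p-values of 0.0103 and 0.00106 (edgeR). Spon1 was at -3.19 without BRAF V600E Bap1 KO replicate 3 and -4.72 without GNA11 Q209L Bap1 KO replicate 1.

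Vcan, versican, the large hyaluronan-binding proteoglycan of provisional matrix, was abundant in the BRAF V600E tumours and scarce in the others. It had 11.3, 3.04, 2.11, 3.67 and 0.951 CPM in GNA11 Q209L Bap1 KO, against 425, 98.0, 283 and 65.4 CPM in BRAF V600E Bap1 KO, and 14.8 and 5.93 CPM in GNA11 Q209L. Every library with BRAF V600E was above every library with GNA11 Q209L. Vcan fell by 5.70 ± 0.84 on the log2 scale against BRAF V600E Bap1 KO (adjusted p = 0.00116, edgeR), with -6.49 without GNA11 Q209L Bap1 KO replicate 1 and -6.41 without the 2 libraries that lack a Bap1 entry. Has2, a synthase of hyaluronan, was at 0.0346 to 0.597 CPM in GNA11 Q209L Bap1 KO, 1.13 to 18.8 CPM in BRAF V600E Bap1 KO, and 1.36 and 2.19 CPM in GNA11 Q209L, and was lower against BRAF V600E Bap1 KO (log2 fold change -5.20 ± 1.13, adjusted p = 0.0062, edgeR). Its value was -3.74 without BRAF V600E Bap1 KO replicate 3, -6.45 without GNA11 Q209L Bap1 KO replicate 1 and -5.82 without the 2 libraries that lack a Bap1 entry. The size of this fold rests on low counts, 11, 2, 2, 1 and 2 in GNA11 Q209L Bap1 KO. Acan, the cartilage proteoglycan aggrecan, had 2, 3, 1, 2 and 6 counts in GNA11 Q209L Bap1 KO (0.0541 to 0.166 CPM). These values lie close to the limit that a count of 3 sets. In BRAF V600E Bap1 KO it had 19, 1, 17 and 23 counts (0.0341 to 1.01 CPM). Acan did not pass (adjusted p = 0.0563, edgeR), though it did without BRAF V600E Bap1 KO replicate 1 (0.0451) or 2 (0.0152).

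Of the nidogens, Nid1 was lower and Nid2 was not called. Nid1 had 216, 203, 107, 118 and 179 CPM in GNA11 Q209L Bap1 KO, against 848, 149.8, 656 and 668 CPM in BRAF V600E Bap1 KO, and 351 and 449 CPM in GNA11 Q209L. BRAF V600E Bap1 KO replicate 2 lay within the GNA11 Q209L Bap1 KO range, and the other 5 libraries of the other genotypes lay above it. The log2 fold change was -1.82 ± 0.44 over BRAF V600E Bap1 KO (adjusted p = 0.00959, edgeR) and -1.28 ± 0.51 over GNA11 Q209L (adjusted p = 0.387, edgeR). Nid2 was at 15.4 to 33.1 CPM in GNA11 Q209L Bap1 KO, 12.3 to 138 CPM in BRAF V600E Bap1 KO, and 31.1 and 45.7 CPM in GNA11 Q209L.

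The comparison of BRAF V600E Bap1 KO with GNA11 Q209L joins both differences, oncogene and Bap1, and shares libraries with both comparisons above. Here 7 members were higher in BRAF V600E Bap1 KO, Omd, Fbn2, Ltbp1, Loxl4, Spon2, Matn2 and Vcan, and Fbln5 was lower, where 5.93% of all genes were called higher and 9.27% lower, 15.2% in all. The median log2 fold change was 1.41 over the members and 0.23 over all genes. Fbln5 fell by 3.39 ± 0.45 on the log2 scale (adjusted p = 0.00225, edgeR). Fbn2 had a log2 fold change of 7.36 ± 1.37 and Ltbp1 of 6.68 ± 1.16 (adjusted p = 0.0102 and 0.00767, edgeR). Without GNA11 Q209L replicate 1 the count was 3, Omd and Ltbp1 higher and Fbln5 lower, where 5.91% of all genes were called. Without replicate 2 it was 1, Fbln5, where 1.45% of all genes were called. Without BRAF V600E Bap1 KO replicate 3 it was 6, where 12.1% of all genes were called. All 4 BRAF V600E Bap1 KO libraries were above both GNA11 Q209L libraries in 11 members, against 22.9% of all genes: the 7 that were called and Loxl1, Tgfbi, Tnc and Thbs1. Only Fbln5 had the groups apart the other way, against 19% of all genes. DESeq2 also called Fn1, Ogn, Tgfbi and Thbs1 higher, 12 members in all, where it called 31.3% of all genes.

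The stroma-rich GNA11 Q209L library had part of its matrix genes in the range of the BRAF V600E tumours. Among the 7 libraries with GNA11 Q209L, it was the highest for 22 members and GNA11 Q209L replicate 2 for 13, while GNA11 Q209L Bap1 KO replicate 5 was the lowest for 18. Against the BRAF V600E Bap1 KO range, replicate 1 of GNA11 Q209L lay within it for 27 members, below it for 14 and above it for 3. Replicate 2 lay within it for 16, below for 24 and above for 4. Between the 2 GNA11 Q209L libraries the ratio of replicate 1 to replicate 2 ran from 0.0735 to 53.5 over the 42 members with more than 3 counts, with a median of 1.88. Replicate 1 was above replicate 2 in 26 members and below it in 18, including Loxl2, Emilin1, Fn1, Thbs2 and Thbs4. None of the counts in this paragraph was made over all genes, so whether they are particular to the members is not known.

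Genes outside the 44 that belong to the same structures were counted for GNA11 Q209L Bap1 KO over BRAF V600E Bap1 KO. Shares of all genes called in that comparison were 24.7% lower and 16.5% higher. Of 23 other proteoglycans and matrix glycoproteins tested, 11 were lower and 2 higher. Of 17 other matricellular genes, 9 were lower and 0 higher, among them Thbs3 (means of 2.92 CPM in GNA11 Q209L Bap1 KO, against 38.6 CPM in BRAF V600E Bap1 KO), Fstl1 (68.5 and 660.3 CPM in the same order) and Smoc2 (9.72 and 189.6 CPM). Among 13 other elastic fibre and microfibril genes, 5 were lower and 1 higher. The one that was higher, Adamtsl4, which binds fibrillin 1, averaged 269 CPM in GNA11 Q209L Bap1 KO, against 37.3 CPM in BRAF V600E Bap1 KO (log2 fold change 2.85 ± 0.36, adjusted p = 0.000584, edgeR). Of 20 collagen-processing enzymes, 7 were lower and 4 higher. Plod1, a lysyl hydroxylase inside the cell, averaged 1161 CPM in GNA11 Q209L Bap1 KO, against 158 CPM in BRAF V600E Bap1 KO (log2 fold change 2.88 ± 0.52, adjusted p = 0.00284, edgeR). Pcolce2, a secreted enhancer of procollagen cleavage, averaged 0.346 and 28.8 CPM in those genotypes (log2 fold change -6.40 ± 0.97, adjusted p = 0.00128, edgeR). Of 11 genes of hyaluronan synthesis, turnover and binding, 6 were lower and 2 higher. Among the lower ones, Tmem2 averaged 10.4 CPM in GNA11 Q209L Bap1 KO, against 66.5 CPM in BRAF V600E Bap1 KO, Tnfaip6 averaged 0.355 and 15.6 CPM in the same order, and Has1 averaged 0.0143 and 12.1 CPM. Against GNA11 Q209L no gene of these 5 lists passed with edgeR, and the medians ran from -1.49 to -0.01.

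Markers of other cell types were counted in the same comparisons, and their part in the members' values was not tested. Of GNA11 Q209L Bap1 KO set against BRAF V600E Bap1 KO, 7 of 8 adipocyte markers, 7 of 8 skeletal muscle markers, 4 of 10 keratinocyte markers, 3 of 10 macrophage markers, 2 of 10 pericyte and smooth muscle markers, 2 of 3 chondrocyte markers and 2 of 4 salivary gland markers were lower. Of 10 endothelial markers 1 was higher and 0 lower, and of 8 Schwann cell markers 1 was lower. All 10 melanocyte markers were higher. The shares of all genes called in that comparison were 24.7% lower and 16.5% higher. Against GNA11 Q209L none of these markers passed with edgeR. At an unadjusted p under 0.05, 5 of 10 macrophage markers, 3 of 10 endothelial markers, 1 of 10 pericyte and smooth muscle markers, 1 of 8 Schwann cell markers and 1 of 8 adipocyte markers were lower there, against 7.52% of all genes. At that threshold 1 of 10 melanocyte markers was higher, against 3.84% of all genes. Summed pericyte and smooth muscle markers lay at 195 to 435 CPM in GNA11 Q209L Bap1 KO, 262 to 1051 CPM in BRAF V600E Bap1 KO, and were 252 and 937 CPM in GNA11 Q209L.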

How the data were processed

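Whole-tumour RNA was sequenced in 11 libraries. The authors deposited 1 table of estimated counts per gene, without normalisation, per the file headers and values. All gene values are whole numbers, so rounding changed nothing. STAR and mm9 are named in the submitters' processing notes; versions, counter, annotation and strand setting are not stated there, so reads of overlapping or antisense genes may be shared. After 7 repeated rows were dropped and 6 transgene rows set aside, 18756 genes remained, 14 of them without a count. Totals ran from 18338082 to 81035135 counts; replicates are separate tumours, per the labels, and whether each came from its own mouse is not stated, and limits given by 3 counts cover counting error only.

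Genotypes were compared with the quasi-likelihood test of edgeR 4.0.16 in R 4.3.3 on these counts, with TMM scaling and genotype as the only term. The default filter by group kept 17350 genes, all 44 members among them, and 11 libraries were in 1 fit. Tests were two-sided, with Benjamini-Hochberg adjustment over all genes and a threshold of 0.05. CPM are TMM-scaled, and the SE of a log2 fold change comes from the change and its F statistic. The script was tested on simulated counts. DESeq2 1.42.0, other scaling, no filter, fewer libraries and summed libraries were tried. Fits without the 2 BRAF V600E Bap1 KO libraries that lack a Bap1 entry were added after seeing the data, as were the motif searches.

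The members and lists were chosen with earlier results of these data known. Values in every library are given for the 8 members with the smallest p against GNA11 Q209L, up to 8 called members each way with the largest change against BRAF V600E Bap1 KO, and the most abundant member of each role; from other lists, up to 3 genes with the smallest p against BRAF V600E Bap1 KO were named. Fn1, Col1a1 and Dpp4 were chosen after their values were seen. Promoters and gene order are from RefSeq (GRCm38.p6; 27 members had a promoter) and exon lengths from GENCODE vM21.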

Additional observations from a re-analysis of the deposited data

Results flagged for a closer look

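Of 88 groups examined (44 members in each of the genotypes labelled Bap1 KO), 13 held a library whose gap to the next was large for the range of its group by Dixon's test. The nominal rate of 1 group in 20 holds for independent, normally distributed values. The test was run on CPM without a log, for genes measured in the same libraries. The count of 13 can therefore not be set against that rate. All 13 were the highest library of their group. In BRAF V600E Bap1 KO, replicate 1 was far above the rest for Fn1 (16110 CPM, next 1391), Thbs1 (1061 CPM, next 223) and Ltbp2 (137.6 CPM, next 35.4). Replicate 4 of that genotype stood apart for Ogn (107.6 CPM, next 16.6) and Dpt (183.1 CPM, next 33.3), replicate 2 for Tgfbi (843.6 CPM, next 453) and replicate 3 for Spon1 (334.3 CPM, next 98.3).

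In GNA11 Q209L Bap1 KO, replicate 1 stood apart for Tnc (181 CPM, next 36.4), Vcan (11.29 CPM, next 3.67) and Has2 (0.5972 CPM, next 0.111). Replicate 3 stood apart for Ogn (0.3787 CPM, next 0.111), replicate 4 for Aspn (8.284 CPM, next 2.87) and replicate 5 for Loxl2 (446.6 CPM, next 160). GNA11 Q209L Bap1 KO replicate 1 is also the library of that genotype with the most keratinocyte marker RNA, 1623 CPM against 4.63 to 10.6 CPM in the other 4, and the part of it in these values was not tested.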

How the results depend on the processing

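For GNA11 Q209L Bap1 KO over BRAF V600E Bap1 KO, 34 members were called, and 29 to 35 under the alternatives. The count was 30 to 35 with 1 library left out, where 31.4% to 41.8% of all genes were called, and 29 without the 2 libraries that lack a Bap1 entry, where 22% were, against 41.2% with all libraries. Against GNA11 Q209L, DESeq2 called 4 where edgeR called 0, and the members' median of -1.80 ran from -1.97 to -0.72 with 1 library left out. For BRAF V600E Bap1 KO over GNA11 Q209L the 8 calls were 2 in a fit of the 2 genotypes alone and 1 to 8 with 1 library left out. Calls over all genes moved too, from 15.2% with all libraries to 2.45% with the 2 genotypes alone and 1.45% without GNA11 Q209L replicate 2. A fit without 1 GNA11 Q209L library assumes that the lone library varies like the other genotypes. No paired analysis was possible because no label links a tumour of 1 genotype to a tumour of another.

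Some signs turned, and the cause was not tested. For GNA11 Q209L Bap1 KO over GNA11 Q209L, Matn2 was -0.01 with RLE size factors, -0.02 with DESeq2, -0.02 with the 2 genotypes alone and -0.03 with the libraries sharing an identifier summed, and Fbln1 was -0.11 with them summed. With 1 library left out, values there ran from -4.29 to 0.48 for Ogn, -2.72 to 4.0 for Omd (its remaining GNA11 Q209L library had no count), -2.80 to 1.57 for Aspn, -2.77 to 0.46 for Eln, -0.45 to 1.03 for Fbln1, -0.60 to 0.44 for Efemp2, -4.37 to 1.28 for Mfap4, -0.47 to 0.87 for Ltbp1, -3.11 to 0.74 for Loxl2, -3.75 to 0.47 for Postn, -1.61 to 0.05 for Tgfbi, -0.52 to 0.91 for Matn2 and -0.74 to 0.07 for Acan.

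For GNA11 Q209L Bap1 KO over BRAF V600E Bap1 KO, uncalled members turned: Prelp ran from -0.88 to 0.24, Mfap2 from -0.58 to 0.29, Loxl2 from -1.31 to 0.06, Sparc from -0.55 to 0.10 and Nid2 from -1.35 to 0.17, and Mfap2 was 0.24 without the 2 libraries that lack a Bap1 entry. For BRAF V600E Bap1 KO over GNA11 Q209L, the ranges were -4.03 to 1.19 for Fmod, -0.71 to 1.56 for Bgn, -1.08 to 0.12 for Prelp, -1.29 to 0.28 for Fbln1, -0.57 to 2.0 for Mfap5, -1.08 to 0.32 for Emilin1, -0.11 to 1.37 for Lox, -2.37 to 1.38 for Loxl2, -0.26 to 0.38 for Loxl3, -0.68 to 5.2 for Dpt and -0.77 to 0.75 for Nid2. There Loxl3 was -0.03 with the 2 genotypes alone and -0.02 with libraries summed, and without the 2 libraries that lack a Bap1 entry Thbs4 was 0.16 and Dpt -0.77. No called member changed sign in any of these fits. Depth limits Omd, Ogn and Acan, whose GNA11 Q209L Bap1 KO counts lie at 7 or below. Other called members also had low counts in some of these libraries. Examples are Has2 (11, 2, 2, 1 and 2 counts in replicates 1 to 5) and Mfap4 (34, 9, 18, 1 and 0).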
